A study of Mus musculus with 19 samples.

Results

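The genes of the endoplasmic reticulum (ER) stress and unfolded protein response were followed in mouse liver RNA-seq. The list holds 33 genes among 20433 genes with a normalized count, and all 33 were among the 14743 genes tested. They were chosen by symbol for their role, with earlier results of these data known. Male C57BL/6JOlaHsd mice, 4 weeks old at the start, ate a normal diet (ND) or a Western diet (WD; HFD in the labels) for 4 months, and for the last 8 weeks a subcutaneous micro-osmotic pump delivered saline or AN1284, an indoline derivative, at 1 or 5 mg/kg/day. The WD was rich in fat, with added sucrose, fructose and cholesterol and less choline than the ND. The 6 groups were ND saline, ND with 1 mg/kg/day, ND with 5 mg/kg/day, WD saline and WD with 5 mg/kg/day, with 3 livers each, and WD with 1 mg/kg/day, with 4. No line carried a transgene, every mouse had a pump, and the RNA was that of whole liver, so that fewer cells of a type and less RNA per cell cannot be told apart.

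The ER folds secreted and membrane proteins, and hepatocytes, which secrete most plasma proteins, are rich in it. When unfolded proteins accumulate, the sensors IRE1 alpha (Ern1), ATF6 and PERK (Eif2ak3) leave the chaperone BiP (Hspa5) and start separate branches: IRE1 alpha splices Xbp1 mRNA, ATF6 is cut in the Golgi to a transcription factor, and PERK phosphorylates eIF2 alpha, which slows translation while ATF4 is made. XBP1 and ATF6 raise chaperones and ER-associated degradation (ERAD), and ATF4 raises amino acid genes, Atf3, Ddit3 and Trib3. RNA levels of the sensors do not report their activity, and counts per gene do not show Xbp1 splicing.

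The response is known to act through short promoter elements, and these sequences are shown because they are the elements through which the branches are known to act; 13 of the genes hold one in the window searched. Promoter windows from RefSeq (GRCm38.p6), reaching from 250 bases before to 50 after the start site, were matched for 30 of the 33 genes, all but Hyou1, Manf and Atf6. Both strands were searched for the ER stress response element (ERSE, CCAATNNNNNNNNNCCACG), which ATF6 and NF-Y bind, for ERSE-II (ATTGGNCCACG), for the unfolded protein response element (UPRE, TGACGTGG) of XBP1 and ATF6, and for a form of the CARE, the element of C/EBP-ATF dimers that include ATF4 (TTGCATCA). ERSE was present in 9 of the 30 genes and in 39 of all 32851 promoter windows (0.119%). ERSE-II was present in 2 of the 30 and in 0.0365% of all windows, CARE in 3 of the 30 and in 0.895%, and UPRE in 0 of the 30 and in 0.676%. ERSE was defined on chaperone promoters, so its presence there is a description of the list. The matches are printed on the strand of each gene, 5′ to 3′, with the element in capitals and neighbouring bases in lower case; a capital run that begins with CGTGG holds the element in reverse.
Hspa5 (ERSE, chr2:34772025-34772043, bases -65 to -47): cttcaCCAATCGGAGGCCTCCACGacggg
Hsp90b1 (ERSE, chr10:86705638-86705656, bases -212 to -194): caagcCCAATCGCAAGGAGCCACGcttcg
Hsp90b1 (ERSE, chr10:86705533-86705551, bases -107 to -89): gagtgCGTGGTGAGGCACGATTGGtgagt
Calr (ERSE, chr8:84847075-84847093, bases -162 to -144): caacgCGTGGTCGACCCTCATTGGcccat
Canx (ERSE, chr11:50325800-50325818, bases -145 to -127): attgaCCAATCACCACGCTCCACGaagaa
Pdia6 (ERSE, chr12:17266491-17266509, bases -98 to -80): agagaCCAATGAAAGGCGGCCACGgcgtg
Dnajc3 (ERSE, chr14:118937827-118937845, bases -105 to -87): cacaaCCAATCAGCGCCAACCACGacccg
Creld2 (ERSE, chr15:88819520-88819538, bases -126 to -108): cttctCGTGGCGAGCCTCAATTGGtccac
Syvn1 (ERSE, chr19:6046532-6046550, bases -44 to -26): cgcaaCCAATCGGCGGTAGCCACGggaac
Derl3 (ERSE, chr10:75893242-75893260, bases -156 to -138): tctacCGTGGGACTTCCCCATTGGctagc
Herpud1 (ERSE-II, chr8:94386377-94386387, bases -52 to -42): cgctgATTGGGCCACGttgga
Dnajb11 (ERSE-II, chr16:22857852-22857862, bases 7 to 17): cggcgATTGGCCCACGcctgg
Herpud1 (CARE, chr8:94386317-94386324, bases -112 to -105): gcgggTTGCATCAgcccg
Atf3 (CARE, chr1:191183436-191183443, bases -110 to -103): cgcacTTGCATCAccaag
Chac1 (CARE, chr2:119351049-119351056, bases -193 to -186): tgccgTTGCATCActcct

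Herpud1 held both an ERSE-II and a CARE in its window, and its RNA is described in most comparisons below, so its promoter is given whole (chr8:94386179-94386478, plus strand), with both elements in capitals.
Herpud1: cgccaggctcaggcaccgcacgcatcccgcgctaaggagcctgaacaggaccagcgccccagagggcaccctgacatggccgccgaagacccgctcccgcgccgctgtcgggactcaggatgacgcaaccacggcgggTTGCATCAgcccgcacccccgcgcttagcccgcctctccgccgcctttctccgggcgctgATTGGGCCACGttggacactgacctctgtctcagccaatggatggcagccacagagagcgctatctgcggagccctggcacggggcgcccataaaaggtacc

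**Figure D1:**
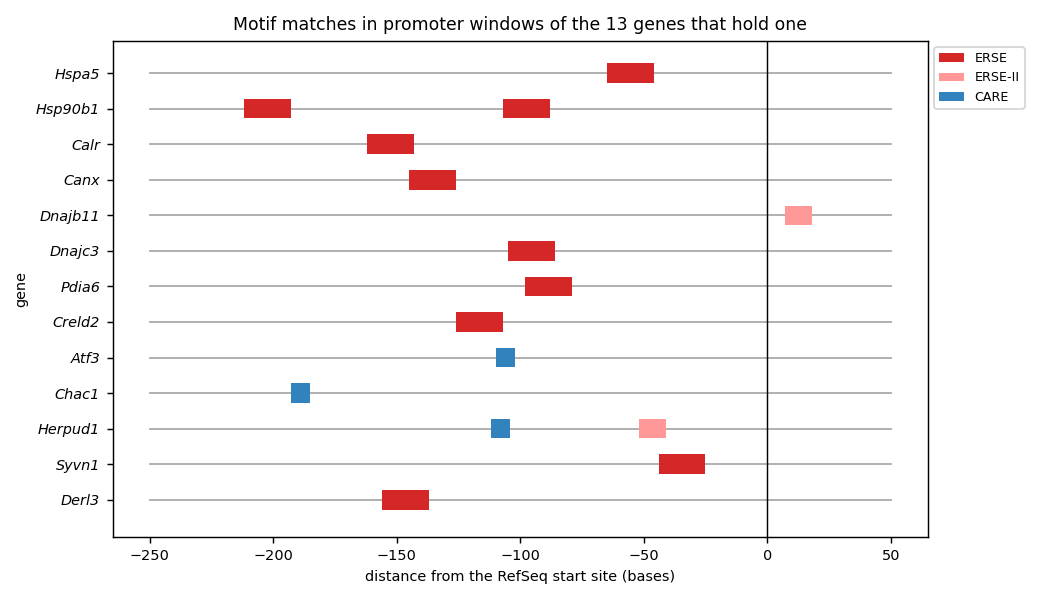
Positions of exact ERSE, ERSE-II and CARE matches in the promoter windows of the 13 genes that hold one, with distance from the RefSeq start site in bases on the x axis and 1 gene per line. Chaperones and ERAD genes carry ERSE or ERSE-II, Atf3 and Chac1 carry CARE, and Herpud1 carries both kinds.

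Each library held 23326800 to 32596067 reads counted in genes, and the values are normalized counts, the deposited counts divided by a size factor per library. The 33 genes took 0.683% to 1.117% of the counted reads of a library. Tests were limma on log2(normalized count + 1), with Benjamini-Hochberg adjusted p under 0.05 as the threshold; folds on this scale understate the change of low genes. The hepatocyte markers stood high in every library, with the 10 listed genes summing to between 1426000 and 3917000 normalized counts. Ddit3 lies over a second, empty gene model on its strand and meets Mars on the other, Manf overlaps Rbm15b and Dcaf1, and Syvn1 overlaps Mrpl49, so reads in those stretches may not all be counted for these 3 genes. Livers were labelled as separate replicates, and p-values measure the spread between them.

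Within groups the genes varied to different degrees, and the heat map by library shows whole columns that were high or low. Asns, asparagine synthetase, had a within-group coefficient of variation of 60.4% to 99.2%, and Derl3, an ERAD channel component, of 38.3% to 72.9%. Neither passed in any comparison. P4hb, a disulfide isomerase, varied by 2.99% to 10.9%. In the WD 5 mg group, replicate 3 was the lowest library for 25 of the 33 genes and for 14 of the 15 chaperone, isomerase, CRELD2 and MANF genes. Those 15 genes summed to 246887, 234268 and 176271 normalized counts in its replicates 1 to 3. The library with the last replicate number had the lowest sum in the other 5 groups as well. It was the lowest for 12 of the 15 in WD saline, 11 in WD 1 mg (replicate 4), 10 in ND saline, 10 in ND 1 mg and 9 in ND 5 mg. In the ND 5 mg group, replicate 1 was the highest for 13 of the 15, and in the ND 1 mg group it was the highest for 11.

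**Figure D2:**
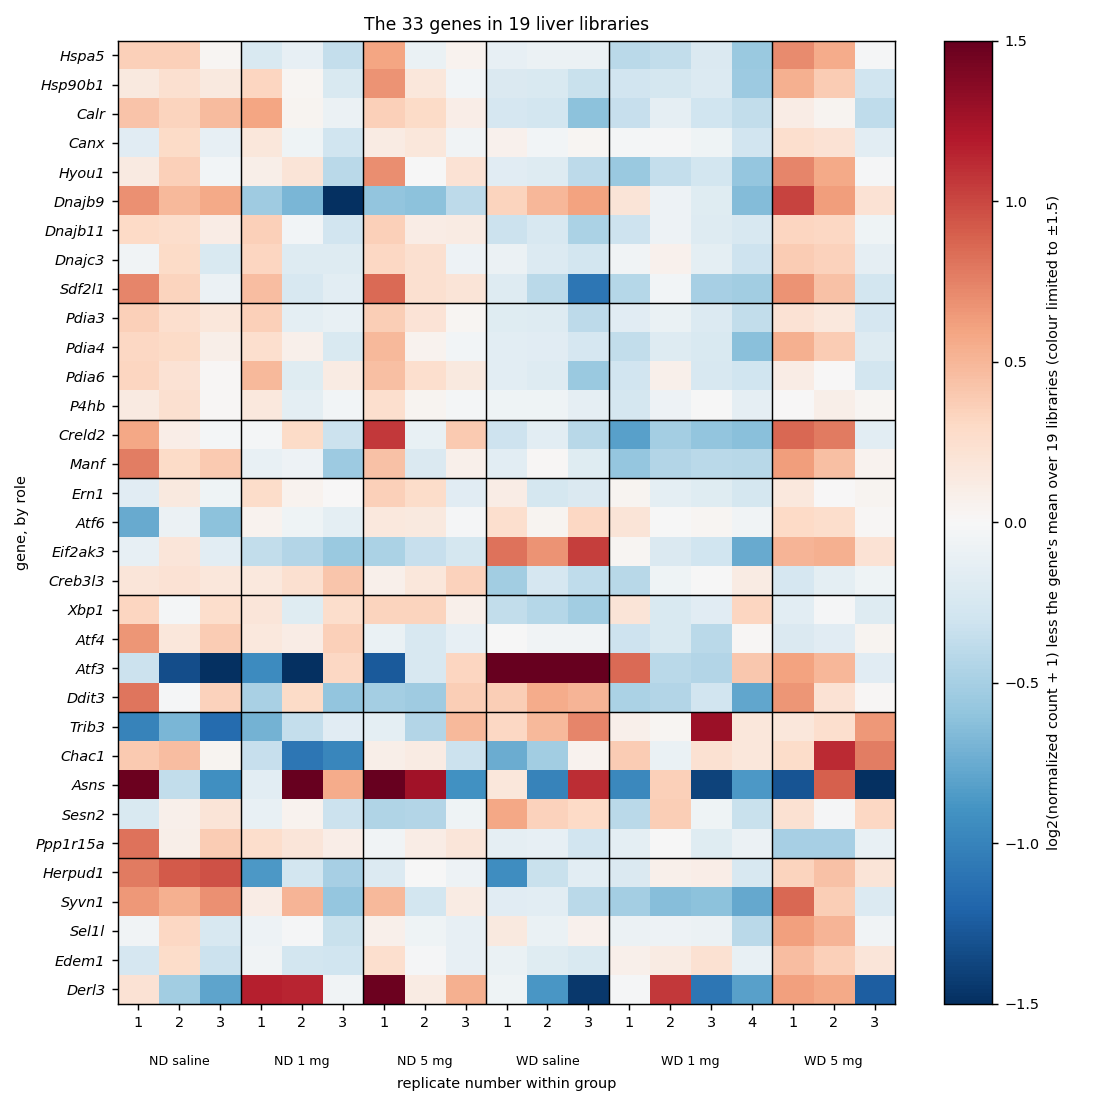
Heat map of the 33 genes (rows, by role) in the 19 libraries (columns, by group and replicate), coloured by log2(normalized count + 1) less the mean of the gene over all libraries, with the colour limited to 1.5 in either direction. Atf3 is high in the 3 WD saline libraries, Herpud1 in the 3 ND saline libraries, and the folding genes are high in replicates 1 and 2 but not replicate 3 of WD 5 mg.

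The comparison of WD saline with ND saline asked what the diet did to the response. Atf3, Trib3, Eif2ak3 and Atf6 rose, while Herpud1, Syvn1, Xbp1, Atf4, Creb3l3, Chac1, Ppp1r15a, Manf, 3 of 9 chaperones and 2 of 4 isomerases fell. In all, 4 of the 33 genes were higher and 13 lower, a share of 12.1% and 39.4%, against 28.1% of all genes tested called higher and 25% called lower. The median log2 fold change was -0.42 over the 33 genes and 0.01 over all genes. This balance depended on scaling: with libraries scaled by total counted reads, which moved the median of all genes up by 0.43, 8 of the 33 were higher and 1, Herpud1, was lower, while all genes went from 4136 higher and 3684 lower to 7581 and 1350. The WD saline livers also held less RNA of the hepatocyte markers, of which 10 of 10 fell (9 of 10 with total reads). Their part in these results was not tested.

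**Figure D3:**
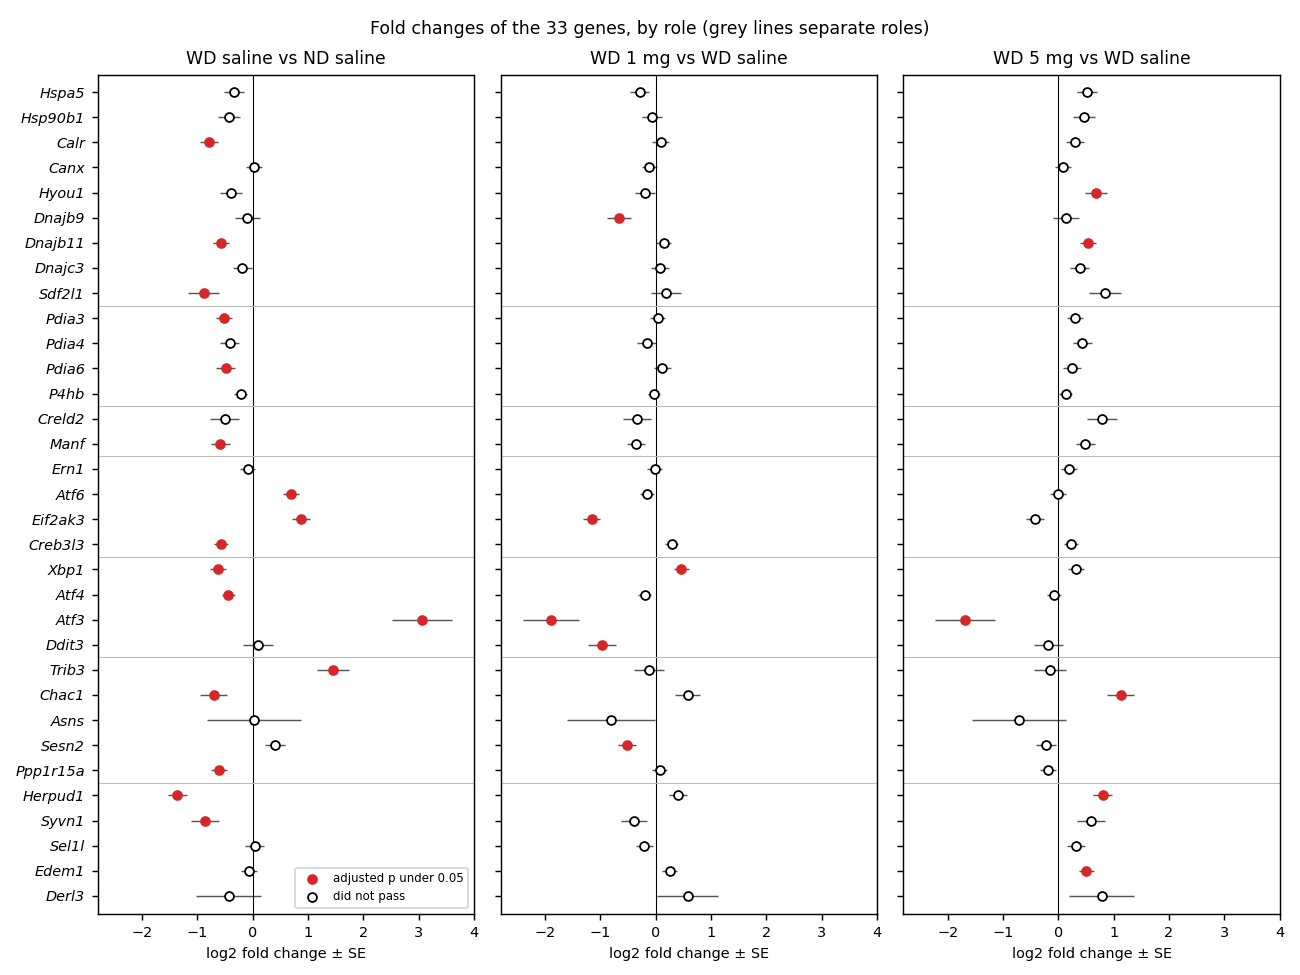
Log2 fold changes with standard errors of the 33 genes, by role, for WD saline against ND saline, WD 1 mg against WD saline and WD 5 mg against WD saline. Filled points passed the adjusted p of 0.05; with the diet 13 fell and 4 rose (1 and 8 with libraries scaled by total reads), with 1 mg 5 fell and 1 rose (10 and 0), and with 5 mg 1 fell and 5 rose (2 and 2).

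Among the 9 lumenal chaperones and cochaperones 3 fell and none rose with the diet under the deposited scaling, with a median log2 fold change of -0.40 that became 0.03 with total reads. Taken less the median of all genes, it was -0.41 with total reads. The 3 that fell were Calr, the lectin chaperone calreticulin (-0.80 ± 0.16, SE; adjusted p = 0.000594), Sdf2l1, an ER-resident partner of BiP cochaperones (-0.89 ± 0.28; adjusted p = 0.0145), and the BiP cochaperone Dnajb11 (-0.57 ± 0.14; adjusted p = 0.00275). The call on Sdf2l1 was lost without ND saline replicate 1 (or WD saline replicate 3, at an adjusted p of 0.0878). Hspa5, which encodes BiP and was added here after its values were seen, had 36212, 36079 and 28700 normalized counts in ND saline and 25850, 26612 and 26590 in WD saline. The groups did not overlap, but the log2 fold change of -0.34 ± 0.18 did not pass (adjusted p = 0.112). Of the 4 protein disulfide isomerases, Pdia3 (-0.51) and Pdia6 (-0.49) fell, and Pdia4 (-0.42) and P4hb (-0.22) did not pass. Pdia6 lost its call without ND saline replicate 1 or WD saline replicate 3 (adjusted p up to 0.0995). Manf, a secreted ER stress protein, fell by 0.59 ± 0.17 on the log2 scale and lost its call without ND saline replicate 1 (adjusted p = 0.0537).

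Herpud1, which recruits substrates to the ERAD ligase, had the lowest adjusted p of the list in this comparison. Its normalized counts were 19049, 21068 and 21620 in ND saline and 5838, 8810 and 9977 in WD saline. Every WD saline library lay below every ND saline library, and the mean was 0.399 of that in ND saline (log2 fold change -1.36 ± 0.17, SE; adjusted p = 6.14e-06). This was the fall that kept its call with libraries scaled by total reads (log2 fold change -0.93, adjusted p = 0.000189). Syvn1, the ERAD ubiquitin ligase HRD1, fell by 0.87 ± 0.25 on the log2 scale (adjusted p = 0.00797). Its partner Sel1l (0.03), the mannosidase-like Edem1 (-0.07) and Derl3 (-0.43) did not pass, and Edem1 turned to a rise with total reads (0.36, adjusted p = 0.0432).

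The sensors did not move together. Eif2ak3, encoding PERK, had 585, 724 and 572 normalized counts in ND saline and 1122, 1014 and 1312 in WD saline. Every WD saline library was higher than every ND saline library (log2 fold change 0.87 ± 0.16, adjusted p = 0.000205). Atf6 had 1485, 2364 and 1639 in ND saline and 2984, 2591 and 3111 in WD saline, again without overlap (0.69 ± 0.14, adjusted p = 0.000547). Creb3l3, a liver-enriched relative of ATF6 that controls lipid and acute phase genes, went the other way. It had 7681, 7881 and 7644 in ND saline and 4722, 5708 and 5199 in WD saline, with no overlap (-0.57 ± 0.12, adjusted p = 0.000929; -0.14 and not past the threshold with total reads). Ern1, encoding IRE1 alpha, had 1748, 2186 and 1892 against 2139, 1643 and 1701, which overlapped and did not pass (-0.09 ± 0.14, adjusted p = 0.595).

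The transcription factors also moved in different directions, and not branch by branch with the sensors. Atf3, a stress-induced repressor and activator of the ATF family, had 46.0, 22.4 and 19 normalized counts in ND saline and 283, 217 and 206 in WD saline. All WD saline libraries were far above all ND saline libraries, with a mean 8.08 times as high (log2 fold change 3.06 ± 0.54, adjusted p = 0.000184). Xbp1 had 7228, 5670 and 6950 in ND saline and 4465, 4281 and 4030 in WD saline, without overlap (-0.63 ± 0.15, adjusted p = 0.00188). Atf4 had 3143, 2247 and 2592 against 1986, 1925 and 1921, also without overlap (-0.44 ± 0.12, adjusted p = 0.00646). Neither Xbp1 (-0.20) nor Atf4 (-0.01) passed with total reads. Ddit3, encoding the pro-apoptotic factor CHOP, had 226, 128 and 164 against 168, 190 and 185, which overlapped (0.10 ± 0.27, adjusted p = 0.763).

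ATF4 targets went in opposite directions. Trib3, a pseudokinase induced by ATF4 and CHOP, had 67.7, 84.3 and 60.7 normalized counts in ND saline and 169, 192 and 227 in WD saline. The groups were apart by more than their spread (log2 fold change 1.46 ± 0.29, adjusted p = 0.000441). Chac1, which degrades glutathione, had 231, 244 and 181 in ND saline and 105, 122 and 182 in WD saline. WD saline replicate 3 lay just inside the ND saline range, the fall was 0.70 ± 0.24 on the log2 scale (adjusted p = 0.0207), and leaving out any of 4 libraries ended the call (ND saline replicates 1 and 2, WD saline replicates 1 and 2; adjusted p up to 0.106). Ppp1r15a, the stress-induced subunit that turns phosphatase on eIF2 alpha, fell by 0.61 ± 0.15 on the log2 scale (adjusted p = 0.00261), while Sesn2, a stress-induced inhibitor of mTORC1 (0.39), and Asns (0.03) did not pass.

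In livers of WD mice given 1 mg/kg/day, compared with WD saline, Eif2ak3, Atf3, Ddit3, Dnajb9 and Sesn2 fell and Xbp1 rose. Of the 33 genes 1 was higher, against 10.3% of all genes, and 5 were lower (15.2%), against 12.6% of all genes. Scaling by total reads, which moved the median of all genes by -0.23, gave 0 higher and 10 lower, while all genes went from 1520 higher and 1856 lower to 720 and 4056. Eif2ak3 had 649, 547, 517 and 377 normalized counts in WD 1 mg, all below the 3 WD saline libraries (log2 fold change -1.15 ± 0.15, adjusted p = 2.74e-05). Atf3 had 105, 43.3, 42.1 and 76.2, again all below WD saline (-1.90 ± 0.51, adjusted p = 0.0115), with a call that ended without WD saline replicate 1 (adjusted p = 0.0518). Ddit3 had 92.9, 95.2, 106 and 75.1, below each WD saline library (-0.97 ± 0.25, adjusted p = 0.00903). These 3 genes had the lowest adjusted p of the list in this comparison.

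The other falls with 1 mg were less secure. Dnajb9, a BiP cochaperone induced by XBP1, had 1971, 1633, 1520 and 1098 against 2180, 2446 and 2631 in WD saline and did not overlap (-0.66 ± 0.22, adjusted p = 0.0338). Its call ended when any of 5 libraries was left out (WD saline replicates 1, 2 and 3, and WD 1 mg replicates 3 and 4), with an adjusted p of up to 0.122. Sesn2 fell by 0.51 ± 0.17 on the log2 scale (adjusted p = 0.035), which any of 6 libraries decided (WD saline replicates 1, 2 and 3, and WD 1 mg replicates 1, 3 and 4; adjusted p up to 0.152). Xbp1 was the gene that rose, with 6573, 4912, 5128 and 7208 normalized counts, all above WD saline (0.47 ± 0.14, adjusted p = 0.0211), a call that ended without WD saline replicate 2 or 3 or WD 1 mg replicate 4 (adjusted p up to 0.0872) and with total reads (0.23).

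The chaperones, isomerases, CRELD2 and MANF, 15 genes in all, gave 1 fall (Dnajb9) and no rise with 1 mg. Hspa5 had 21386, 21794, 24242 and 19240, below WD saline in each library (-0.29 ± 0.17, adjusted p = 0.235). Herpud1 had 9621, 11784, 11936 and 9468 and overlapped WD saline (0.41 ± 0.16, adjusted p = 0.0752). Atf6 (2885, 2500, 2566 and 2417), Ern1 (2034, 1783, 1740 and 1639), Creb3l3 (5086, 6489, 6758 and 7405) and Atf4 (1608, 1694, 1504 and 2015) each overlapped WD saline and did not pass. Chac1 (231, 164, 207 and 198) and Trib3 (144, 139, 334 and 154) overlapped WD saline as well, and replicate 3 stood far above the others for Trib3.

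In livers of WD mice given 5 mg/kg/day, Hyou1, Dnajb11, Herpud1, Edem1 and Chac1 rose and Atf3 fell, so that 2 of the 15 folding genes and 2 of the 5 ERAD genes passed. Of the 33 genes 5 were higher (15.2%), against 5.51% of all genes, and 1 was lower, against 7.03% of all genes. The median log2 fold change was 0.30 over the 33 genes and -0.01 over all genes. Scaling by total reads, which moved the median of all genes by -0.22, gave 2 higher (Chac1 and Herpud1) and 2 lower (Atf3 and Eif2ak3), while all genes went from 813 higher and 1036 lower to 428 and 2698. The other rises were of Hyou1, a large BiP-like chaperone (0.68 ± 0.20, adjusted p = 0.0312), Dnajb11 (0.54 ± 0.14, adjusted p = 0.0168) and Edem1 (0.51 ± 0.14, adjusted p = 0.0251).

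Herpud1 had 14033, 15150 and 12697 normalized counts in WD 5 mg, above all WD saline libraries and below all ND saline libraries (0.80 ± 0.17, adjusted p = 0.00483). Chac1 had 214, 384 and 300, above all WD saline libraries (1.13 ± 0.24, adjusted p = 0.00469). Both calls held with each of the 19 libraries left out in turn. Hyou1, added after its values were seen, had 7038, 6939 and 6018 in WD saline and 13144, 11701 and 7784 in WD 5 mg. The groups did not overlap, and its call ended without any 1 of the 3 WD saline libraries or of WD 5 mg replicates 1 and 2 (adjusted p up to 0.147). Dnajb11 lost its call without WD saline replicate 3 or WD 5 mg replicate 1 or 2 (adjusted p up to 0.0877), and Edem1 without those or WD saline replicate 2 (adjusted p up to 0.101).

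The size of the rise turned on WD 5 mg replicate 3. Hspa5 had 45913, 41637 and 27934 normalized counts in replicates 1 to 3, all above WD saline, with a log2 fold change of 0.52 ± 0.18 (adjusted p = 0.0675). Without replicate 3 it was 0.73 ± 0.17 (adjusted p = 0.0139). Creld2, a secreted ER stress protein added after its values were seen, had 1261, 1391 and 1170 in WD saline and 2823, 2681 and 1400 in WD 5 mg, with 0.79 ± 0.27 (adjusted p = 0.0657), and 1.11 ± 0.25 without replicate 3 (adjusted p = 0.0128). Syvn1, added likewise, had 2938, 2972 and 2504 against 6050, 4298 and 2876, where replicate 3 overlapped WD saline, with 0.59 ± 0.25 (adjusted p = 0.142), and 0.87 ± 0.25 without replicate 3 (adjusted p = 0.0395). Without that library, left out here because of its values, 13 of the 33 genes were higher in place of 5, against 3.6% of all genes in the same fit. Replicate 3 was the lowest of its group for 25 of these same genes, so leaving it out favours their rise. These 13 calls therefore cannot decide how many of the genes rose. Without either replicate 1 or replicate 2, or without WD saline replicate 3, 2 were higher, and without WD saline replicate 2 there were 3.

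**Figure D4:**
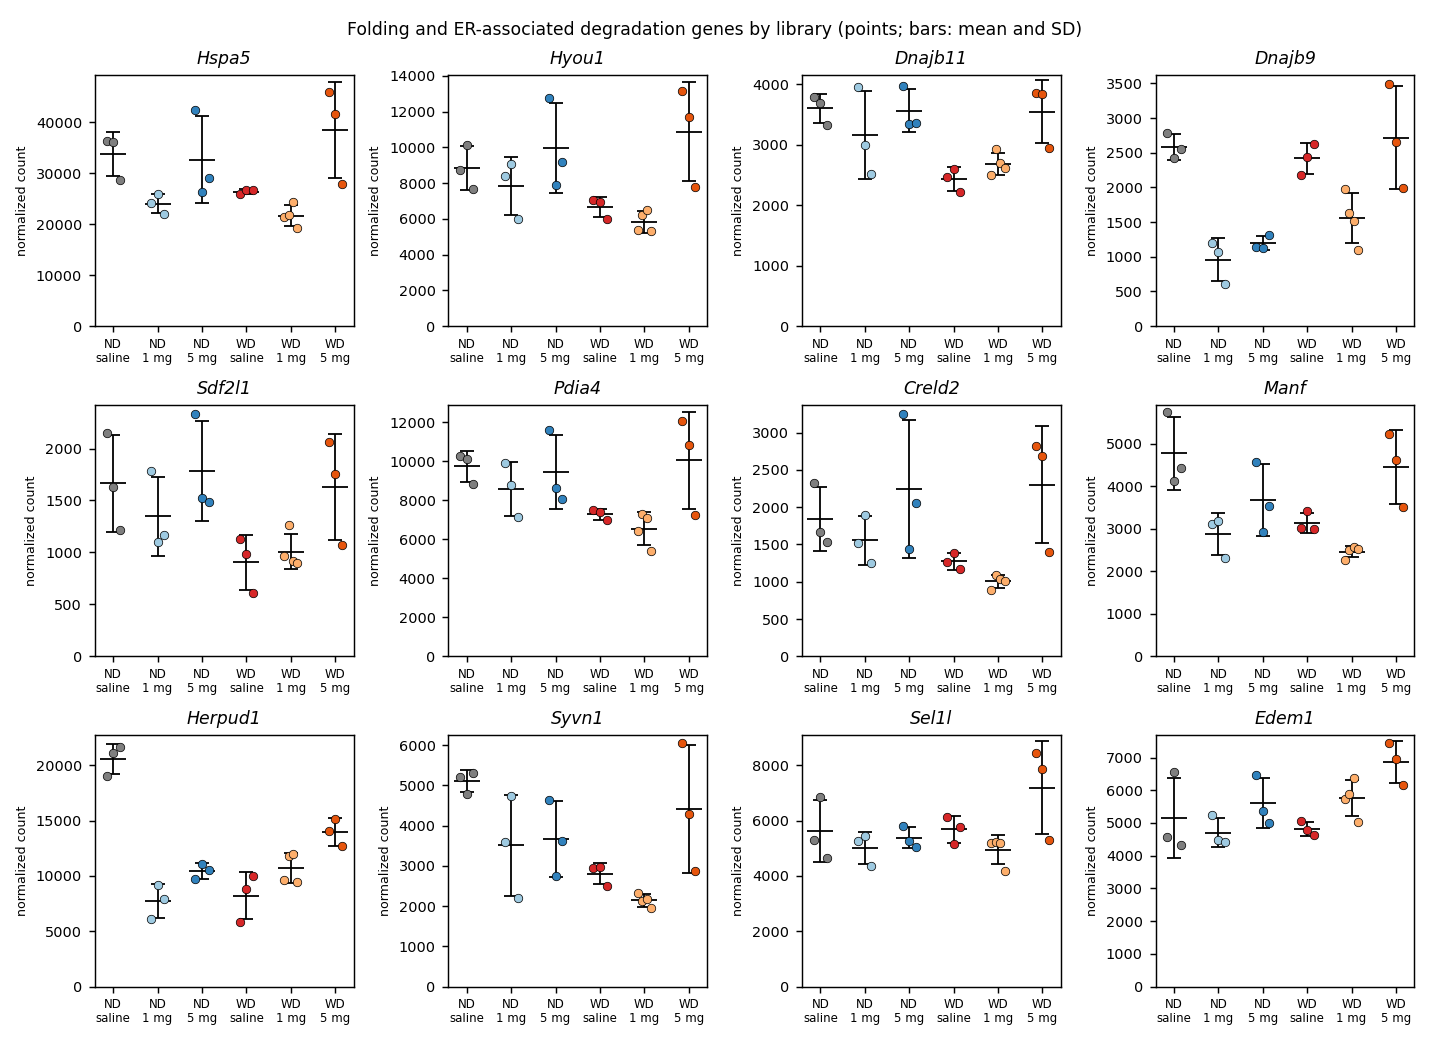
Normalized counts of 12 folding and ERAD genes in every library (points), with the mean and SD of each group (bars), from 0 on a linear axis. For Hspa5, Hyou1, Creld2 and Syvn1 replicates 1 and 2 of WD 5 mg stand above WD saline and WD 1 mg and replicate 3 stands lower; Herpud1 is highest in ND saline.

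Atf3 was the gene that fell with 5 mg, with 88.0, 81.5 and 51.3 normalized counts, all below WD saline (-1.69 ± 0.54, adjusted p = 0.0497). Any of 13 libraries left out ended this call, among them each WD saline and each WD 5 mg library (adjusted p up to 0.184). Eif2ak3 had 906, 921 and 740, between the WD saline and the ND saline ranges, and did not pass (-0.42 ± 0.16, adjusted p = 0.0914). Ddit3 had 205, 151 and 131 and overlapped WD saline (-0.18 ± 0.27, adjusted p = 0.739). Trib3 (154, 162 and 215), Atf6 (3099, 3031 and 2542), Ern1 (2203, 1987 and 2035) and Atf4 (1714, 1769 and 2040) overlapped WD saline and did not pass. Xbp1 (5170, 5702 and 5041) lay above WD saline in every library without passing (0.32 ± 0.15, adjusted p = 0.186), and Creb3l3 (5678, 6098 and 6460) overlapped it.

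Both doses were compared with the same WD saline livers, so the doses were also compared directly. By limma 0 of the 33 genes passed in either direction between WD 5 mg and WD 1 mg, as did 0% of all genes, and limma voom called 0 as well. At an unadjusted p under 0.05 there were 15 of the 33 genes and 776 of all 14743. The median log2 fold change was 0.28 over the 33 genes and -0.01 over all genes. The lowest adjusted p of the list was 0.164, for Manf, with a log2 difference of 0.84 ± 0.16 and values of 5239, 4620 and 3517 against 2269, 2500, 2563 and 2530. Hspa5 (0.80 ± 0.17), Creld2 (1.13 ± 0.25), Hyou1 (0.87 ± 0.19), Syvn1 (0.98 ± 0.23) and Eif2ak3 (0.73 ± 0.15) also had positive differences, with 5 mg higher, and did not pass. Without WD 5 mg replicate 3, Hspa5, Hyou1, Creld2 and Manf passed as higher with 5 mg, each at an adjusted p of 0.0431. They were 4 of the 33 genes, against 5 of all genes (0.0339%) in the same fit. That library was singled out because its values for these same genes were low, so these calls cannot decide whether the doses differed.

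On the ND, AN1284 was accompanied by lower Dnajb9 and Herpud1. With 1 mg, 0 of the 33 genes were higher by limma, against 2.9% of all genes, and 4 were lower (12.1%), against 1.74% of all genes; 9 had an unadjusted p under 0.05, and voom called 0 higher. With 5 mg, 1 was higher (3.03%), against 6.27%, and 3 were lower (9.09%), against 3.89%. Herpud1 had 6135, 9204 and 7898 normalized counts with 1 mg and 9680, 11071 and 10547 with 5 mg, all below the ND saline libraries (-1.43 ± 0.17, adjusted p = 0.000136, and -0.98 ± 0.17, adjusted p = 0.00306). Dnajb9, added after its values were seen, had 2780, 2418 and 2557 in ND saline, 1194, 1069 and 611 with 1 mg and 1143, 1125 and 1309 with 5 mg. It too was below ND saline in every treated library (-1.49 ± 0.23, adjusted p = 0.00119, and -1.12 ± 0.23, adjusted p = 0.00815). These 4 calls held with each library left out. Scaling by total reads moved the median of all genes by 0.16 with 1 mg and 0.15 with 5 mg and gave 1 and 2 of the 33 genes higher and 4 and 3 lower; all genes went from 427 higher and 256 lower to 1417 and 138 with 1 mg, and from 925 and 574 to 1943 and 249 with 5 mg.

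Other calls on the ND rested on single libraries. With 1 mg, Chac1 (138, 82.3 and 89.1) fell by 1.10 ± 0.24 on the log2 scale (adjusted p = 0.0131) and Manf fell by 0.73 ± 0.17 (adjusted p = 0.0198), and both calls ended without ND saline replicate 1 or ND 1 mg replicate 3. With 5 mg, Atf4 (1862, 1691 and 1833) fell by 0.56 ± 0.12 (adjusted p = 0.0117; lost without ND saline replicate 1 or ND 5 mg replicate 2) and Atf6 (2803, 2785 and 2479) rose by 0.58 ± 0.14 (adjusted p = 0.0169; lost without ND saline replicate 1 or 3 or ND 5 mg replicate 2). Eif2ak3 was below ND saline in every treated library, with 494, 468 and 433 with 1 mg and 458, 502 and 529 with 5 mg, but did not pass (adjusted p = 0.135 and 0.181). The cytosolic heat shock genes moved beside these results. All 8 of 8 fell with each dose on the ND, 7 of 8 fell with WD saline and 5 of 8 with 1 mg on the WD. Of all genes, 1.74% fell with 1 mg and 3.89% with 5 mg on the ND. With WD saline 25% of all genes fell, and with 1 mg on the WD 12.6%. With 5 mg, 4 of 8 were higher on the WD than on the ND, against 1.7% of all genes. In the interactions 5 of 8 were higher at 1 mg and 7 of 8 at 5 mg, against 9.39% and 8.54%. With total reads, 3 of 8 fell with WD saline and 7 of 8 with 1 mg on the WD, against 1350 and 4056 of all 14743 genes. In the 1 mg interaction 3 of 8 were then higher, and the other counts of heat shock genes given here stayed the same. The heat shock genes summed to 52700 to 59540 normalized counts in ND saline and 23010 to 37880 in the other 5 groups. The part of this in the results for Herpud1 and Dnajb9 was not tested.

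The other ND values overlapped ND saline in most genes. Xbp1 had 6520, 5078 and 6928 with 1 mg and 7240, 7282 and 6095 with 5 mg, and Creb3l3 had 7557, 8011 and 9041 and 7165, 7604 and 8587. Ern1 had 2386, 2049 and 1983 with 1 mg and 2525, 2396 and 1756 with 5 mg. None of these passed. Of the genes not yet given, Atf6 with 1 mg (2612, 2410 and 2282), Atf4 with 1 mg (2228, 2143 and 2545) and Chac1 with 5 mg (188, 192 and 140) overlapped ND saline and did not pass. Atf3 was variable on the ND, with 29.4, 10.8 and 71.5 with 1 mg and 23.6, 48.5 and 72.4 with 5 mg, and its groups overlapped with ND saline. Ddit3 (91.8, 159 and 85.4, then 90.5, 89.3 and 167) and Trib3 with 1 mg (83.2, 106 and 121) overlapped ND saline, while Trib3 with 5 mg (123, 101 and 191) was above it in every library without passing (0.91 ± 0.29, adjusted p = 0.0511).

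Whether the effect of a dose differed between diets was tested as an interaction, in which all 4 groups take part. At 1 mg the difference was higher on the WD for 2 of the 33 genes, against 9.39% of all genes, and lower for 2, against 11.3%. At 5 mg it was higher for 5, against 8.54%, and lower for 2, against 11.6%. Herpud1 passed at both doses (1.84 ± 0.24, adjusted p = 5.39e-05 at 1 mg; 1.78 ± 0.24, adjusted p = 0.000208 at 5 mg). It fell on the ND with either dose, and on the WD it was 0.41 higher with 1 mg, which did not pass, and rose with 5 mg. These interactions, the diet comparison and both ND comparisons share the same 3 ND saline livers, in which Herpud1 was highest. Chac1 differed likewise (1.68 ± 0.33, adjusted p = 0.00197; 1.46 ± 0.34, adjusted p = 0.00766). Dnajb9 differed at 5 mg (1.25 ± 0.33, adjusted p = 0.0143). These 5 interaction calls held with each library left out, although Dnajb9 did not pass with total reads (0.87, adjusted p = 0.0556). That scaling, which moved the median interaction of all genes by -0.39 at 1 mg and -0.37 at 5 mg, gave 6 genes lower at 1 mg and 2 higher at 5 mg; all genes went from 1385 higher and 1659 lower to 501 and 4832 at 1 mg, and from 1259 and 1714 to 446 and 4541 at 5 mg.

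The remaining interaction calls were less secure. At 5 mg Manf (0.87 ± 0.24, adjusted p = 0.019) lost its call without ND 5 mg replicate 2 (adjusted p = 0.0582). Syvn1 (1.10 ± 0.36, adjusted p = 0.0375) lost it in 8 of the 19 settings that left out a library, and Atf3 (-2.36 ± 0.77, adjusted p = 0.0387) in 9. Atf6 had log2 differences from saline of 0.44 and 0.58 on the ND at the 2 doses and of -0.16 and -0.004 on the WD, with interactions of -0.60 ± 0.19 (adjusted p = 0.0335) at 1 mg and -0.59 ± 0.20 (adjusted p = 0.044) at 5 mg, lost in 8 and 10 of the 19 settings. Eif2ak3 at 1 mg (-0.73 ± 0.22, adjusted p = 0.0241) lost it in 4.

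The diet was also compared within each dose of AN1284, in livers that share no library with the saline comparison. With 1 mg, 2 of the 33 genes were higher on the WD, against 8.05% of all genes, and 2 were lower, against 4.92%. With 5 mg, 2 were higher, against 1.7%, and 0 were lower by limma, against 1.37% (9 of the 33 had an unadjusted p under 0.05, and voom called 0 lower). Of the 4 genes that rose with the diet in saline livers, Eif2ak3 passed again, with 5 mg (0.78 ± 0.16, adjusted p = 0.00923; lost without ND 5 mg replicate 1 or WD 5 mg replicate 2). With 1 mg Eif2ak3 had 0.14 and did not pass. Atf3 had log2 differences of 1.09 (adjusted p = 0.171) and 0.70 (adjusted p = 0.57) at the 2 doses. Trib3 had 0.81 (adjusted p = 0.0568) and 0.39 (adjusted p = 0.547), and Atf6 had 0.09 and 0.10. Of the 13 that fell, Atf4 (-0.44 ± 0.12, adjusted p = 0.0178) and Creb3l3 (-0.36 ± 0.12, adjusted p = 0.0488) passed with 1 mg. The call on Creb3l3 ended in 16 of 19 settings that left out a library, and that on Atf4 without ND 1 mg replicate 3 or WD 1 mg replicate 3.

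Herpud1 and Chac1, which fell with the diet in saline livers, had positive differences in treated livers. Herpud1 had 0.48 (adjusted p = 0.0581) with 1 mg and 0.42 (adjusted p = 0.219) with 5 mg. Chac1 rose with the diet with 1 mg (0.98 ± 0.23, adjusted p = 0.00827; lost without ND 1 mg replicate 2) and had 0.76 (adjusted p = 0.102) with 5 mg. Dnajb9 rose with the diet with 1 mg, where 1 library overlapped (0.73 ± 0.22, adjusted p = 0.0337), and with 5 mg (1.15 ± 0.23, adjusted p = 0.0089), and the first call ended when any of 5 libraries was left out (ND 1 mg replicates 2 and 3, WD 1 mg replicates 1, 2 and 3; adjusted p up to 0.153) and the second without WD 5 mg replicate 1 (adjusted p = 0.0578).

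**Figure D5:**
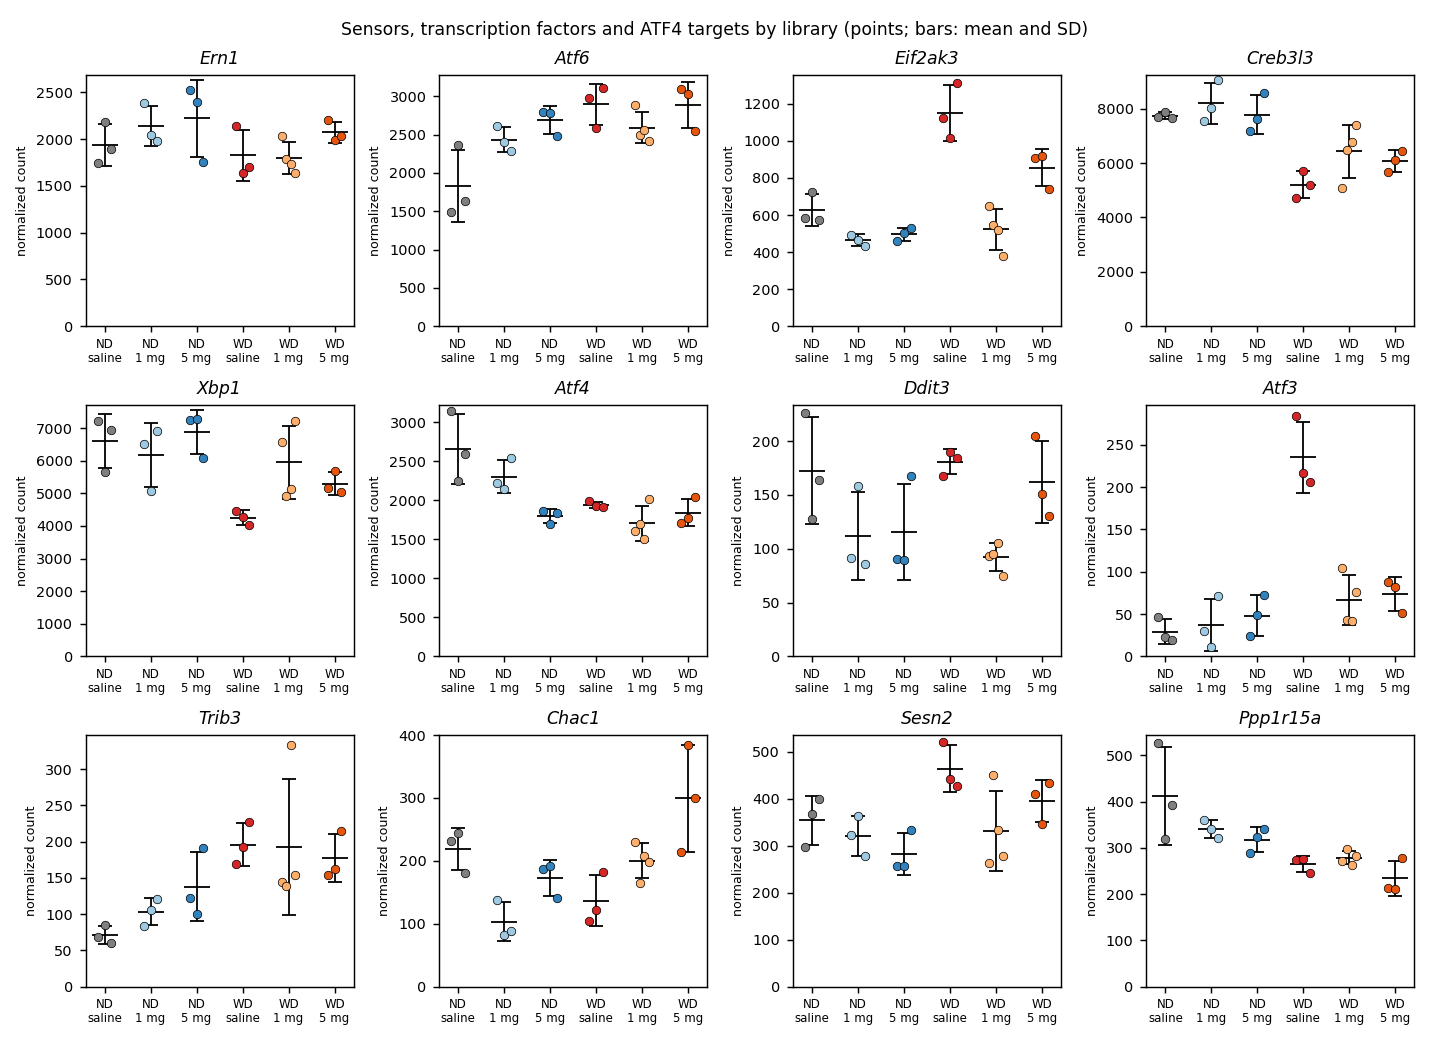
Normalized counts of 12 sensors, transcription factors and ATF4 targets in every library (points), with the mean and SD of each group (bars), from 0 on a linear axis. Atf3 and Eif2ak3 are highest in the 3 WD saline libraries, Atf6 is lowest in ND saline, and Trib3 has a single high library in WD 1 mg.

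The promoter elements can be set beside these counts, as a description of overlapping roles. Of the 11 genes with an ERSE or ERSE-II, 0 rose and 5 fell with the diet in saline livers (median log2 fold change -0.49), and of the 19 other genes with a window, 3 rose and 7 fell (median -0.10). With 5 mg on the WD, 2 of the 11 rose (median 0.52), and of the 19, 2 rose and 1 fell (median 0.13). With 1 mg on the WD, 0 of the 11 passed by limma in either direction (median 0.08), and of the 19, 1 rose and 5 fell (median -0.12). Of all genes, 28.1% rose and 25% fell with the diet. On the WD, 5.51% rose and 7.03% fell with 5 mg, and 10.3% and 12.6% with 1 mg. The counts by element depend on scaling in all 3 comparisons, as described above. With total reads, of the rises with 5 mg only those of Chac1 and Herpud1 kept their calls. The 3 genes with a CARE did not move alike with the diet: Atf3 rose (3.06), and Chac1 (-0.70) and Herpud1 (-1.36) fell.

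Genes of the same pathways outside the list were counted too, and the direction of most of these lists with the diet depended on scaling. The shares of all genes to read them against are 28.1% higher and 25% lower with the diet, 10.3% and 12.6% with 1 mg on the WD, and 5.51% and 7.03% with 5 mg. Of 21 other folding enzymes and glycoprotein quality control genes, 1 rose and 12 fell with the diet, led by Pdia5, a disulfide isomerase (-1.38 ± 0.13), Ppib, the ER cyclophilin (-1.10 ± 0.14), and Sil1, the BiP nucleotide exchange factor (-0.80 ± 0.10), with Dnajc10, a disulfide reductase, higher (1.05 ± 0.17). Of 23 other ERAD genes 2 rose and 9 fell, with the lowest p for the lectin Os9 (-1.10 ± 0.13), the ligase Rnf5 (-0.99 ± 0.13), Aup1 (-0.81 ± 0.14) and Edem2 (-0.58 ± 0.10). Of 32 genes of translocation, signal peptide cleavage and ER export 2 rose and 13 fell, with the lowest p for Sec62 (-0.77), Sec11c (-0.57), Spcs2 (-0.60) and Ssr4 (-0.83). With libraries scaled by total reads these counts became 3 higher and 4 lower of 21, 11 and 3 of 23, and 14 and 3 of 32. Under that scaling 7581 of all 14743 genes were higher and 1350 lower with the diet. For all genes it gave 720 and 4056 with 1 mg on the WD, and 428 and 2698 with 5 mg. With 1 mg on the WD, 4 of 21, 1 of 23 and 0 of 32 of these lists rose and 0, 0 and 1 fell, and with 5 mg 4, 3 and 1 rose and 0 fell in each; with total reads 1, 0 and 0 were higher and 3, 6 and 6 lower with 1 mg, and 1, 1 and 0 higher and 1, 0 and 0 lower with 5 mg.

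Among 36 other ATF4 targets and amino acid genes 15 rose and 8 fell with the diet (26 and 3 with total reads). The lowest p were those of Cth, cystathionine gamma-lyase, which fell (-2.44 ± 0.17), and of Vldlr (3.15 ± 0.31), Aldh18a1, of proline synthesis (2.81 ± 0.34), and the arginine transporter Slc7a1 (2.35 ± 0.29), which rose. With 1 mg on the WD 2 of the 36 rose and 12 fell (1 and 22 with total reads), and with 5 mg 2 rose and 3 fell (1 and 9). Of 12 eIF2 alpha kinases, phosphatases and eIF2B subunits, 3 rose and 4 fell with the diet (7 and 0 with total reads), among them the kinases Eif2ak2 (0.80) and Eif2ak4 (0.50), higher, and Eif2ak1 (-0.29) and Eif2b1 (-0.51), lower. Of 12 other sensors and their processing genes, 3 rose and 1 fell (9 and 0 with total reads), with Creb3l1 (1.39 ± 0.29), Mbtps1 (0.25) and Mbtps2 (0.51), the Golgi proteases that cut ATF6, higher, and Bloc1s1, an mRNA cut by IRE1 alpha (-0.79), lower. The shares and counts of all genes given for the folding and ERAD lists are those to read these lists against as well. These lists were chosen with earlier results known.

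Markers of liver cell types changed along with the groups. The shares of all genes to read their counts against were 28.1% higher and 25% lower with the diet. On the WD, 10.3% were higher with 1 mg and 5.51% with 5 mg. On the ND, 2.9% and 6.27% were higher with 1 and 5 mg, and 1.74% and 3.89% were lower. The summed hepatocyte markers had 3692000 to 3917000 normalized counts in ND saline, 1426000 to 1822000 in WD saline, 2377000 to 2726000 in WD 1 mg and 1911000 to 2546000 in WD 5 mg; 10 of 10 rose with 1 mg and 7 of 10 with 5 mg. Stellate cell markers summed to 2663 to 3422 in ND saline, 8429 to 10940 in WD saline, 2911 to 4459 in WD 1 mg and 3467 to 5068 in WD 5 mg, and 5 of 8 rose with the diet. Cholangiocyte markers summed to 1915 to 3049, 7180 to 12570, 1144 to 1878 and 1369 to 3620 in the same order, with 3 of 6 higher with the diet. Macrophage markers rose in 8 of 9 genes, from 3833 to 5764 in ND saline to 11430 to 19300 in WD saline, and stood at 12650 to 18520 and 14560 to 16470 with 1 and 5 mg. Endothelial markers rose in 5 of 6 genes, from 2606 to 2716 up to 4308 to 6816. Plasma and B cell markers had values for 8 of 12 genes, summing to 6451 to 7924 in ND saline and 4614 to 4620 in WD saline, and 2 rose and 1 fell of 6 tested. The median log2 fold change of those 6 was 0.63. The lower sum, which the most abundant genes set, therefore does not describe most of the list. Pancreatic acinar markers had values for 2 of 8 genes, both lower with the diet. On the ND, AN1284 moved markers as well. Macrophage markers summed to 9247 to 12750 with 5 mg, and 4 of 9 rose, and to 3574 to 7234 with 1 mg, where 0 of 9 passed by limma. Endothelial markers rose in 3 of 6 genes with 5 mg (3668 to 4962). Hepatocyte markers summed to 2661000 to 3445000 with 1 mg and 3352000 to 3781000 with 5 mg, with 1 of 10 lower at each dose. No marker with a value was at 0 in all libraries of a group. The marker calls depended on scaling. Scaled by total reads, 7581 of all 14743 genes were higher and 1350 lower with the diet. On the WD 720 were then higher with 1 mg and 428 with 5 mg, and on the ND 1943 with 5 mg. With total reads, 7 of 10 hepatocyte markers rose with 1 mg and 6 with 5 mg on the WD. With the diet 7 of 8 stellate, 5 of 6 cholangiocyte and 6 of 6 endothelial markers then rose. Plasma and B cell markers then gave 3 higher and 0 lower with the diet. With 5 mg on the ND, 7 of 9 macrophage and 4 of 6 endothelial markers then rose. The part of these marker shifts in the results for the 33 genes was not tested.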

How the data were processed

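Poly-A RNA of snap-frozen whole liver was sequenced from stranded libraries. Per the labels, the authors used cutadapt 1.18 for trimming, TopHat2 2.1.1 for alignment (GRCm38), HTSeq 0.6.0 for counting per gene and DESeq2 1.22.1 for normalization; the strand setting of the counting is not given in the sources used here. The deposited table gives raw read counts and normalized counts, the deposited counts divided by a size factor (to within 4.66e-09), for 54838 genes, of which 48586 have raw counts and 20433 normalized counts; the others hold a question mark, so count models were not used. Columns of fold changes and p-values, the authors' own comparisons, were not used. Size factors were 0.7592 to 0.7908 in ND saline and 1.0304 to 1.2679 in WD saline.

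Genes with a normalized count of at least 10 in at least 3 libraries were tested with limma 3.58.1 (trend and robust, R 4.3.3) on log2(normalized count + 1), 6 groups in 1 model, 10 comparisons. Functions were tested on simulated data. Members and lists were chosen with earlier results of these data known. Values per library are given for genes that passed in WD saline against ND saline, or in a dose against WD saline, with an absolute log2 fold change of at least 1, for the 4 sensors and the 4 transcription factors; of each wider list up to 4 genes of lowest p are named. Dnajb9, Hspa5, Hyou1, Creld2, Syvn1 and Manf were given such values in addition. Alternatives were pseudocounts of 10 and 0.5, no filter, a stricter filter (group mean of 100), scaling by total reads or by reads outside the 500 most abundant genes, limma voom, only the groups compared, a replicate block, and leaving out each library. RefSeq promoter windows of GRCm38.p6 were searched for exact motifs.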

Additional observations from a re-analysis of the deposited data

Results flagged for a closer look

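In WD 1 mg, the group of 4 livers, a single library stood apart for 3 of the 33 genes, by the gap to its neighbour as a share of the range, and chance alone flags about 1 in 20 groups. For Trib3 replicate 3 was highest, at 334 normalized counts, with a gap of 0.927 of the range. For Pdia6 replicate 2 was highest, at 8713, with 0.866, and for Sel1l replicate 4 was lowest, at 4160, with 0.983.

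By limma's interaction test, 3044 of all 14743 genes passed at 1 mg and 2973 at 5 mg. Of the 33 genes, the effect of a dose differed between diets in 4 at 1 mg and 7 at 5 mg. At 1 mg these were Herpud1 (log2 difference 1.84, adjusted p = 5.39e-05), Chac1 (1.68, adjusted p = 0.00197), Eif2ak3 (-0.73, adjusted p = 0.0241) and Atf6 (-0.60, adjusted p = 0.0335). At 5 mg they were Herpud1 (1.78, adjusted p = 0.000208), Chac1 (1.46, adjusted p = 0.00766), Dnajb9 (1.25, adjusted p = 0.0143), Manf (0.87, adjusted p = 0.019), Syvn1 (1.10, adjusted p = 0.0375), Atf3 (-2.36, adjusted p = 0.0387) and Atf6 (-0.59, adjusted p = 0.044). With libraries left out in turn, the calls on Atf6 were lost in 8 of 19 settings at 1 mg and 10 at 5 mg. Syvn1 and Atf3 lost theirs in 8 and 9, Eif2ak3 in 4 and Manf in 1.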

How the results depend on the processing

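Counts of the 33 genes passing limma are compared here with those of the report. The deposited scaling mattered most. With libraries scaled by total reads the diet gave 8 higher and 1 lower in saline livers (and Edem1 turned to a rise of 0.36), 1 mg on the WD 0 higher and 10 lower, and 5 mg 2 higher and 2 lower. On the ND it gave 1 higher with 1 mg and 2 with 5 mg, with 1 mg the diet gave 1 lower, and the interactions gave 6 lower at 1 mg and 2 higher at 5 mg. Scaling by reads outside the 500 most abundant genes gave 1 higher with 1 mg on the ND, 2 higher with 5 mg, and 1 lower with the diet at 1 mg. With no filter, 1 mg on the WD gave 3 lower, 5 mg 0 lower, the diet at 1 mg 1 higher, and the 5 mg interaction 0 lower. A pseudocount of 0.5 gave 0 lower with 5 mg on the WD, and the stricter filter gave 2 higher with 5 mg on the ND. A fit of only the groups compared gave 2 lower with 1 mg and 0 higher with 5 mg on the ND, 1 higher and 1 lower with the diet at 1 mg, and 1 lower in the 1 mg interaction. Limma voom kept 328 of 330 gene and comparison values on the same side of the threshold.

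With a replicate block, 1 mg on the WD gave 3 lower, 5 mg on the ND 2 higher, the diet at 1 mg 4 higher, the 1 mg interaction 1 lower, and the 5 mg interaction 8 higher and 1 lower, and 310 of 330 values kept their side. Over all genes, deviations of libraries with the same number correlated at -0.274 to 0.235 (median 0.011, 45 pairs). For other numbers it was -0.251 to 0.29 (median -0.018, 105 pairs). The library with the last number had the lowest summed folding genes in all 6 groups. That number was 4 in WD 1 mg and 3 in the other groups. Neither the block nor these correlations therefore tested a place as last in the group.

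Leaving out 1 library at a time, the count of genes higher ranged from 0 to 2 and lower from 2 to 5 with 1 mg on the WD, and with 5 mg from 2 to 13 higher and 0 to 1 lower. On the ND it was 0 to 1 higher and 2 to 4 lower with 1 mg, and 0 to 2 higher with 5 mg. Between the doses 0 to 4 were higher. The diet gave 1 to 3 higher and 0 to 3 lower at 1 mg, and 1 to 3 higher at 5 mg. The interactions gave 2 to 4 higher and 0 to 3 lower at 1 mg, and 3 to 8 higher and 0 to 2 lower at 5 mg. In saline livers 4 to 5 were higher and 9 to 15 lower with the diet. The cause of these changes was not tested.

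Over all genes, counts differing by more than 1.5 times were found beside those already given with no filter (273 higher with 1 mg on the ND, 603 higher and 342 lower with 5 mg, and 1 higher between the doses), with reads outside the 500 genes (769 higher with 1 mg on the ND), with voom (448 higher with 5 mg on the ND), with only the groups compared (23 higher and 57 lower with 1 mg on the ND, 571 higher with 5 mg, and 620 higher and 237 lower with the diet at 1 mg) and with total reads (472 lower with the diet at 1 mg). With 3 or 4 livers per group, values that did not pass do not show equal levels, and genes under about 100 normalized counts, such as Atf3 on the ND, rest on few reads.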
